A study of Mus musculus with 8 samples.

Results

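Distal peaks found only in MPP4 were the accessible regions of mouse MPP4 progenitors that lay away from transcript starts and had no counterpart among the peaks of MPP3 progenitors. They were chosen by peak calls: an MPP4 peak entered if it shared no base with any MPP3 peak and if its centre lay more than 1 kb from every transcript start of the GENCODE vM21 annotation. This selected 17354 of 86952 MPP4 peaks, or 19.96%, and 27.4% of the 63378 distal MPP4 peaks (95% Wilson interval 27.0 to 27.7, for counting error only). The series held 174594 peaks in all, 86952 from MPP4 and 87642 from MPP3 cells. The same rule turned around gave 18180 MPP3-only distal peaks, 28.3% of the 64164 distal MPP3 peaks, and the remaining 46024 distal MPP4 peaks overlapped an MPP3 peak and are named shared here.

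The peaks came from 8 ATAC-seq libraries of 5000 sorted bone marrow cells each, 2 for each genotype and cell type. ATAC-seq cuts accessible DNA with the transposase Tn5, and a peak is a stretch where cuts pile up. All mice were C57BL/6 and carried Ebf1fl/fl. Control mice were Tie2Cre +/+ and knockout mice Tie2Cre +/cre, whereas the series' design text describes the controls as Ebf1-wt with Tie2Cre, and the difference was not resolved. The Tie2 (Tek) promoter drives Cre in endothelial and blood-forming cells, so that deletion precedes these progenitors and is not limited to them. MPP3 cells were gated as LSK CD150- CD48+ and MPP4 cells as the same with Flt3+. Mice of the MPP4 controls were 9 weeks old and those of the MPP4 knockouts 8 weeks, so that age and genotype cannot be told apart there. MPP3 mice were 8 weeks old apart from 1 knockout replicate at 9 weeks.

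Each table gave 1 level per peak, the mean log2 CPM (the log2 of counts scaled to library size) over the 4 libraries of the cell type, both genotypes together. No value per library was in the columns used, so the spread between replicates is unknown, no test was run and every interval below covers counting error only. Peak calling was done on merged replicates, and peaks were joined over the genotypes of a cell type, so a region could enter from cells of 1 genotype alone. The level of the MPP3 libraries at these sites was not in the columns used either. A weaker site that missed the peak threshold and a closed site therefore cannot be told apart.

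MPP4 cells are multipotent progenitors biased towards lymphoid fates and marked by the cytokine receptor Flt3, whereas MPP3 cells are biased towards myeloid fates. Distal accessible regions include enhancers, where transcription factors bind short DNA motifs. PU.1, an ETS-family factor of myeloid and lymphoid cells, pairs with IRF factors on composite ETS-IRF elements. RUNX1 is needed for definitive blood formation. GATA factors act in stem, erythroid, megakaryocyte and mast cells, and EBF1 is a master regulator of B lineage commitment.

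Regions with a PU.1 or ETS-IRF match are shown first, because over all levels these matches were more frequent in MPP4-only than in MPP3-only peaks, as given below. They are the 4 highest-level regions for each motif that had under 50% soft-masked (repeat) bases and 15 bases of the window on each side of the match, and they were picked after their values were seen.  The letters are from the GRCm38 (mm10) reference on the minus strand, and capitals mark the match.
PU.1 near Tac4: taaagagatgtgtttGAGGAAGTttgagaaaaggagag
PU.1 in Ninj2: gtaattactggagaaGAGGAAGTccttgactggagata
PU.1 near E130317F20Rik: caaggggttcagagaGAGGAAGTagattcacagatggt
PU.1 in 1700041G16Rik: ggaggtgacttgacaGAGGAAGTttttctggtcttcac
ETS-IRF near 9430007M09Rik: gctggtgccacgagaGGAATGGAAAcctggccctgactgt
ETS-IRF near Lta4h: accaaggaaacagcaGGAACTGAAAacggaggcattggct
ETS-IRF near Malat1: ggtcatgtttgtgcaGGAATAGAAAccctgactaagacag
ETS-IRF in Tcp1: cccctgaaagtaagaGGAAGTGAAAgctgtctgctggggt
The PU.1 stretches lie at chr11:95260158-95260195, chr6:120155618-120155655, chr10:79850113-79850150 and chr8:22807155-22807192. Their peaks had mean log2 CPM of 4.84, 3.85, 3.79 and 3.78. At 3 or more, PU.1 was in 6.07% (3.92 to 9.29) of MPP4-only and 5.37% (3.46 to 8.23) of MPP3-only peaks. No difference in PU.1 was thus detectable among peaks as strong as those shown. The ETS-IRF stretches lie at chr5:135269668-135269707, chr10:93452188-93452227, chr19:5794384-5794423 and chr17:12921275-12921314, in peaks with mean log2 CPM of 4.31, 3.85, 3.49 and 3.43. The regions in Ninj2, 1700041G16Rik and Tcp1 are intronic and the other 5 intergenic.

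A second set shows regions assigned to genes of early lymphoid cells. For each of the up to 6 genes with the most MPP4-only distal peaks in the lists of lymphoid priming, B lineage and T lineage genes, the region with the highest level was taken, and 5 of the 6 highest that could be used are shown over the 200 bases around their centre. A region of Pou2f2 at mean log2 CPM 3.15 was left out because it overlaps a UTR. Capitals mark matches to any of the 21 motifs searched, on the plus strand of the reference as printed.
Foxp1: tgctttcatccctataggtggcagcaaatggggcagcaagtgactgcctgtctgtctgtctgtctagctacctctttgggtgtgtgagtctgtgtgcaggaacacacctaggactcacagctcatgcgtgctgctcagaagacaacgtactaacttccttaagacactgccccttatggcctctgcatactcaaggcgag
Runx1: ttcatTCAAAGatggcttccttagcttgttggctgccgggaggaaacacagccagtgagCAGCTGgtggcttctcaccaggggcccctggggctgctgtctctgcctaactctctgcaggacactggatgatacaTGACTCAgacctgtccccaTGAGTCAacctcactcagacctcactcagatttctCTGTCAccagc
Cd3e: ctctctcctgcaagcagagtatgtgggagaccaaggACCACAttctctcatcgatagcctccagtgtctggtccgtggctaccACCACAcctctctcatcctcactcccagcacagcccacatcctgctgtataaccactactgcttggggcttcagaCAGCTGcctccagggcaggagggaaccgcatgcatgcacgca
Tcf7: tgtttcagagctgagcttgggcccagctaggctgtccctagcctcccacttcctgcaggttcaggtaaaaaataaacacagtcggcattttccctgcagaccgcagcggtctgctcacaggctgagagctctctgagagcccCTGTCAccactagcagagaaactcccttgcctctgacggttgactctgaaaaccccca
Mef2c: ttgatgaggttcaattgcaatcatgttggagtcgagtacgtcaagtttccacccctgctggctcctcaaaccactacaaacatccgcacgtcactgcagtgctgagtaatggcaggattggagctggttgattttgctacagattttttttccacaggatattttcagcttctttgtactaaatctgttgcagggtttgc
The Foxp1 window (chr6:99375542-99375741, intronic) held none of the motifs in its central 200 bases. Its peak had a mean log2 CPM of 3.38 and lay 84 bp from an MPP3 peak. The Runx1 window (chr16:92823667-92823866, intronic, 3.01) held matches to the E-box, AP-1, TCF/LEF and MEIS motifs. RUNX and E-box matches were in the window near Cd3e (chr9:44998189-44998388, intergenic, 2.75). The Tcf7 window (chr11:52265654-52265853, intronic, 2.66) held a MEIS match, and the Mef2c window (chr13:83566294-83566493, intronic, 2.63) held none.

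MPP4-only distal peaks were mostly weak and short. Their median mean log2 CPM was 1.15 against 2.47 in shared distal peaks and 1.16 in MPP3-only distal peaks, the last on the scale of the MPP3 table. Of the MPP4-only peaks, 86.5% were below a mean log2 CPM of 2, 313 reached 3 and 25 reached 4, with a highest value of 4.84. Median length was 207 bp against 301 bp in shared peaks. Since peak calling depends on the level, which is part of the rule, these levels are a description.

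The share of distal MPP4 peaks without an MPP3 peak fell with the level. It was 69.0% of 10067 peaks at a mean log2 CPM below 1, 38.3% from 1 to 2, 12.9% from 2 to 3, 3.10% from 3 to 4 and 0.536% from 4 to 5. None of the 1883 peaks from 5 to 6 was MPP4-only, which allows a share of up to 0.204% by the Wilson interval. MPP3-only peaks went the same way, with 76.1% below 1 and 0.644% from 4 to 5.

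**Figure D1:**
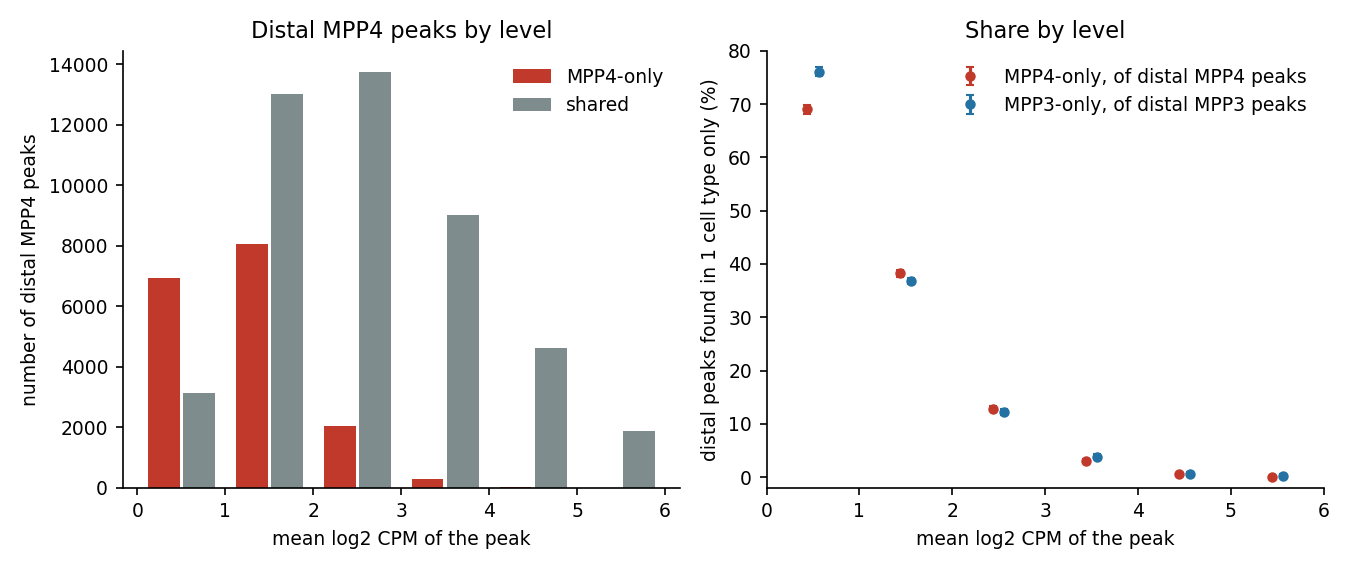
Left, number of distal MPP4 peaks that were MPP4-only or shared in bins of 1 of the mean log2 CPM; right, share of distal peaks found in 1 cell type only per bin, with 95% Wilson intervals, in the MPP4 and MPP3 tables. Bins of 6 and more, which held no peak of 1 cell type only, are not drawn, and the share falls from 69.0% to 0 in MPP4.

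Regions at the edges of the rule had like levels on both sides. The 46 MPP4-only peaks that touched or lay under 50 bp from an MPP3 peak had a median mean log2 CPM of 1.15, and the 82 distal peaks that overlapped an MPP3 peak by under 50 bp had 1.02. A peak in Itpr2 (chr6:146402773-146402978, 1.38) shared 1 base with an MPP3 peak and stayed out. The 179 MPP4-only peaks with a centre at most 100 bp past the 1 kb limit had a median of 1.52, against 1.54 for the 188 MPP4 peaks without an MPP3 peak at most 100 bp inside it. A region of Rnf19a (chr15:36282004-36282190, 2.39) lay just far enough out at 1001 bp, and a peak near Tnfsf11 (chr14:78306910-78307176, 2.33) just too near at 1000 bp.

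MPP4-only and shared distal peaks fell into introns alike but differed in distance to transcript starts. Introns held 52.1% of MPP4-only and 52.4% of shared distal peaks, a difference of -0.32 percentage points (95% interval -1.19 to 0.56). Intergenic DNA held 42.3% and exons 5.60% of the MPP4-only peaks. The median distance to a transcript start was 10994 bp in MPP4-only, 9826 bp in shared and 11396 bp in MPP3-only peaks. Over 10 kb from a start lay 53.2% (52.5 to 53.9) of MPP4-only and 49.4% (49.0 to 49.9) of shared peaks, and over 50 kb 10.1% (9.70 to 10.6) and 7.32% (7.08 to 7.56). The nearest MPP3 peak lay a median of 4856 bp away, under 1 kb in 16.8% and over 10 kb in 29.1% of the MPP4-only peaks. Repeat content differed more, with at least 50% soft-masked bases in 10.7% of MPP4-only, 5.47% of shared and 16.3% of MPP3-only peaks. Median GC content was 49.6%, 50.5% and 51.4% in the same order. By chromosome, the MPP4-only share of distal MPP4 peaks ran from 24.9% on chromosome 17 to 29.9% on chromosome 14.

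Motif matches set MPP4-only peaks apart from MPP3-only peaks. A match is an exact run of letters on either strand in the 200 bp around the peak centre, where N is any base, and it is no evidence of binding. PU.1 matches (GAGGAAGT) were in 10.5% of MPP4-only and 5.14% of MPP3-only distal peaks, a difference of 5.36 percentage points (95% interval 4.80 to 5.92) and a ratio of 2.04. The interferon-response element ISRE, a GAAA repeat with 2 free bases between, was in 4.397% against 1.52%, a ratio of 2.90. The composite ETS-IRF element, GGAA and GAAA with 2 free bases between, the arrangement bound by PU.1 with IRF4 or IRF8 in immune cells, was in 4.64% against 1.65%, a ratio of 2.81. Of 824 ETS-IRF matches in MPP4-only peaks, 6.55% overlapped a PU.1 match.

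Several further motifs were more frequent in MPP4-only peaks and others were not. RUNX (TGTGGT) was in 30.4% against 23.5% of MPP3-only peaks, a difference of 6.93 points (6.01 to 7.85). The general ETS motif (ACNGGAA) was in 19.4% against 15.6%, and the TCF/LEF motif (CTTTGA), bound by TCF1 and LEF1 of the T and B lineages, in 12.8% against 10.5%. The E-box (CAGCTG or CAGGTG), bound by E proteins such as E2A, was in 31.0% against 28.7%, a difference of 2.37 points that became 4.72 after reweighting to GC content and 1.38 in peaks with under 50% soft-masked bases. CTCF (AGNNGGCGC), the insulator protein's motif, was in 3.54% against 2.06%, and MEF2 (CTATTTNTA) in 1.12% against 0.671%. MYB (8.03% against 8.16%), IKZF (15.7% against 16.1%) and POU (0.732% against 0.869%), motifs of blood and lymphoid factors too, had intervals of the difference that included 0, and FOX was lower, at 2.13% against 2.44%. In all, 12 of the 21 motifs had a higher share in MPP4-only than in MPP3-only peaks, and for 1 of these, NF-kB, the interval of the difference included 0 (-0.034 to 0.37). The share of all 86952 MPP4 peaks with a match, as background, was 9.16% for PU.1, 3.20% for ISRE, 3.34% for ETS-IRF and 26.3% for RUNX.

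GATA and EBF1 motifs went the other way. The letters AGATAA, searched as the motif of GATA factors, were in 5.27% of MPP4-only and 12.9% of MPP3-only distal peaks, a difference of -7.63 points (-8.22 to -7.04). The EBF1 motif (TCCCNNGGG) was in 2.44% against 5.74%, a difference of -3.29 points (-3.70 to -2.89). AP-1 (TGACTCA) and C/EBP (TTGCNNAA), whose factors act in myeloid cells, were in 5.63% against 6.89% and in 7.55% against 8.66%. In peaks at a mean log2 CPM of at least 1 these differences grew from -1.26 to -2.29 and from -1.11 to -2.24 points. Taken as groups, PU.1, ISRE or ETS-IRF was in 18.3% of MPP4-only and 8.05% of MPP3-only peaks, and GATA or EBF1 in 7.64% and 18.1%. None of the 21 motifs was in 11.2% of MPP4-only peaks and 15.6% of MPP3-only peaks.

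Against shared distal peaks, the differences in PU.1, RUNX, ISRE, ETS-IRF, GATA and EBF1 were smaller than against MPP3-only peaks. PU.1 was in 10.98% of shared peaks, and MPP4-only minus shared was -0.48 points with an interval that includes 0 (-1.02 to 0.060), and RUNX in 30.6% (-0.97 to 0.64). For RUNX this depended on the processing, with 2.03 points after reweighting to the level, 1.51 after reweighting to level and GC content, -1.47 after reweighting to GC content and -7.04 over whole peaks. PU.1 had -0.31 points after reweighting to the level and -2.39 over whole peaks. E-box went from 0.36 points in the 200 bp window to 4.23 after reweighting to level and GC content and -9.11 over whole peaks. ISRE and ETS-IRF were lower in shared peaks, at 3.24% and 3.52%, by 1.15 (0.81 to 1.51) and 1.12 points (0.77 to 1.48). This order held in the 200 bp window and not over whole peaks, which are longer in the shared set: there MPP4-only minus shared was -0.41 and -0.17 points. GATA, at 7.91%, and EBF1, at 3.35%, lay in shared peaks between the MPP4-only and MPP3-only values. CTCF, at 5.20%, and ETS, at 22.2%, were higher in shared than in MPP4-only peaks (-1.66 and -2.86 points), though both were higher in MPP4-only than in MPP3-only peaks. For AP-1 (-2.20 points), C/EBP (-1.60), MYB (-1.44) and KLF (-1.71) the differences from shared peaks were larger than those from MPP3-only peaks.

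**Figure D2:**
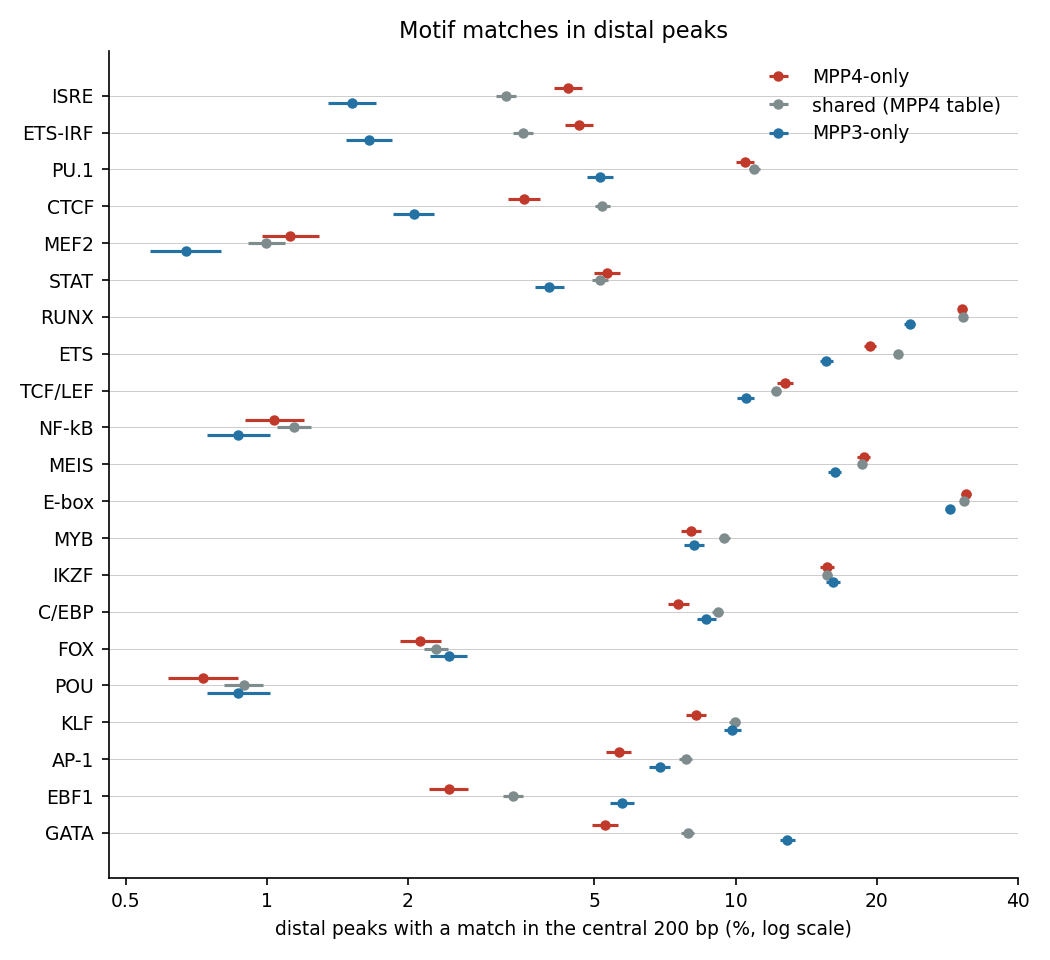
Share of distal peaks with a match to each of 21 motifs in the central 200 bp (log scale) in MPP4-only, shared and MPP3-only peaks, with 95% Wilson intervals, ordered by the ratio of MPP4-only to MPP3-only. ISRE, ETS-IRF and PU.1 are at the top with ratios of 2.90, 2.81 and 2.04, and GATA and EBF1 at the bottom with 0.409 and 0.426.

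PU.1, ISRE, ETS-IRF, RUNX, GATA and EBF1 differed from MPP3-only peaks in 1 direction below a mean log2 CPM of 1 and at 2 or more, and some other motifs did not. At 2 or more, ETS was in 18.9% of MPP4-only and 19.5% of MPP3-only peaks, TCF/LEF in 10.9% and 12.1% and CTCF in 2.13% and 2.05%, with overlapping intervals in each case. Below 1, AP-1 was in 5.95% and 5.49% and E-box in 27.8% and 26.9%, also with overlapping intervals. The E-box difference was larger in stronger peaks. At 2 or more E-box was in 38.2% of MPP4-only and 33.9% of MPP3-only peaks, and at 3 or more in 46.0% (40.6 to 51.5) and 30.8% (26.2 to 35.8). Below a mean log2 CPM of 1, PU.1 was in 10.8% of MPP4-only and 4.42% of MPP3-only peaks, and at 2 or more in 9.13% and 4.94%. Among the 313 MPP4-only peaks at 3 or more it was in 6.07% (3.92 to 9.29), against 5.37% (3.46 to 8.23) of 354 MPP3-only peaks, so that no difference in PU.1 was detectable there. ETS-IRF went from 3.86% below 1 to 6.397% at 2 or more in MPP4-only peaks, and from 1.51% to 1.80% in MPP3-only peaks. GATA was in 6.15% of MPP4-only peaks below 1 and 4.39% at 2 or more, whereas in MPP3-only peaks it went from 9.51% to 20.4%. The EBF1 motif was in 2.33% and 2.13% of MPP4-only peaks and in 4.36% and 9.97% of MPP3-only peaks at these levels.

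Distance from the other cell type's peaks also went with the shares of some motifs, in both directions. MPP4-only peaks over 10 kb from an MPP3 peak held PU.1 in 11.2% and ETS-IRF in 5.07%. Those under 1 kb held them in 8.56% and 3.64%. ETS was likewise higher, at 20.3% over 10 kb and 17.7% under 1 kb, whereas E-box was lower, at 28% and 33.5%. EBF1 was also lower over 10 kb, at 1.98% (1.63 to 2.40) against 2.92% (2.37 to 3.60), and these intervals only just overlapped. For RUNX, ISRE, GATA, TCF/LEF, CTCF and AP-1 the intervals at these distances overlapped too, which does not show that the shares were equal. In MPP3-only peaks the PU.1 shares at these distances were 4.69% and 5.59%. Among MPP4-only peaks, PU.1 was in 10.1% (9.48 to 10.72) of intronic and 11.4% (10.70 to 12.15) of intergenic ones. CTCF was also higher in intergenic peaks, at 3.81% against 3.08%, and RUNX was higher in intronic ones, at 31.3% against 29.9%.

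Matches to PU.1, RUNX, CTCF, ETS, E-box, ISRE and ETS-IRF were denser at the centre of MPP4-only peaks than in their flanks. Those to GATA, EBF1, C/EBP and TCF/LEF were less dense there. MEF2 had few matches, 118 central and 419 in the flanks, and its ratio of 1.13 is too uncertain to place it in either group. In MPP4-only peaks, PU.1 matches were 11.6 times as dense in the central 100 bp as in the flanks 300 to 500 bp away. The ratio was 11.9 in shared and 5.19 in MPP3-only peaks. ETS-IRF had ratios of 2.40, 1.73 and 0.771 in the same order, so that it was denser at the centre in MPP4-only and shared peaks and less dense in MPP3-only peaks. RUNX had 2.61, 2.64 and 2.09, and CTCF 8.90, 11.5 and 4.05. GATA matches were 0.362 times as dense at the centre as in the flanks in MPP4-only peaks, and 1.40 times in MPP3-only peaks. The EBF1 motif had ratios of 0.727 and 2.54, C/EBP 0.879 and 1.29, and TCF/LEF 0.929 and 0.728. Flank densities were close in all sets, with 0.603 GATA matches per kb in MPP4-only and 0.576 in MPP3-only peaks.

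**Figure D3:**
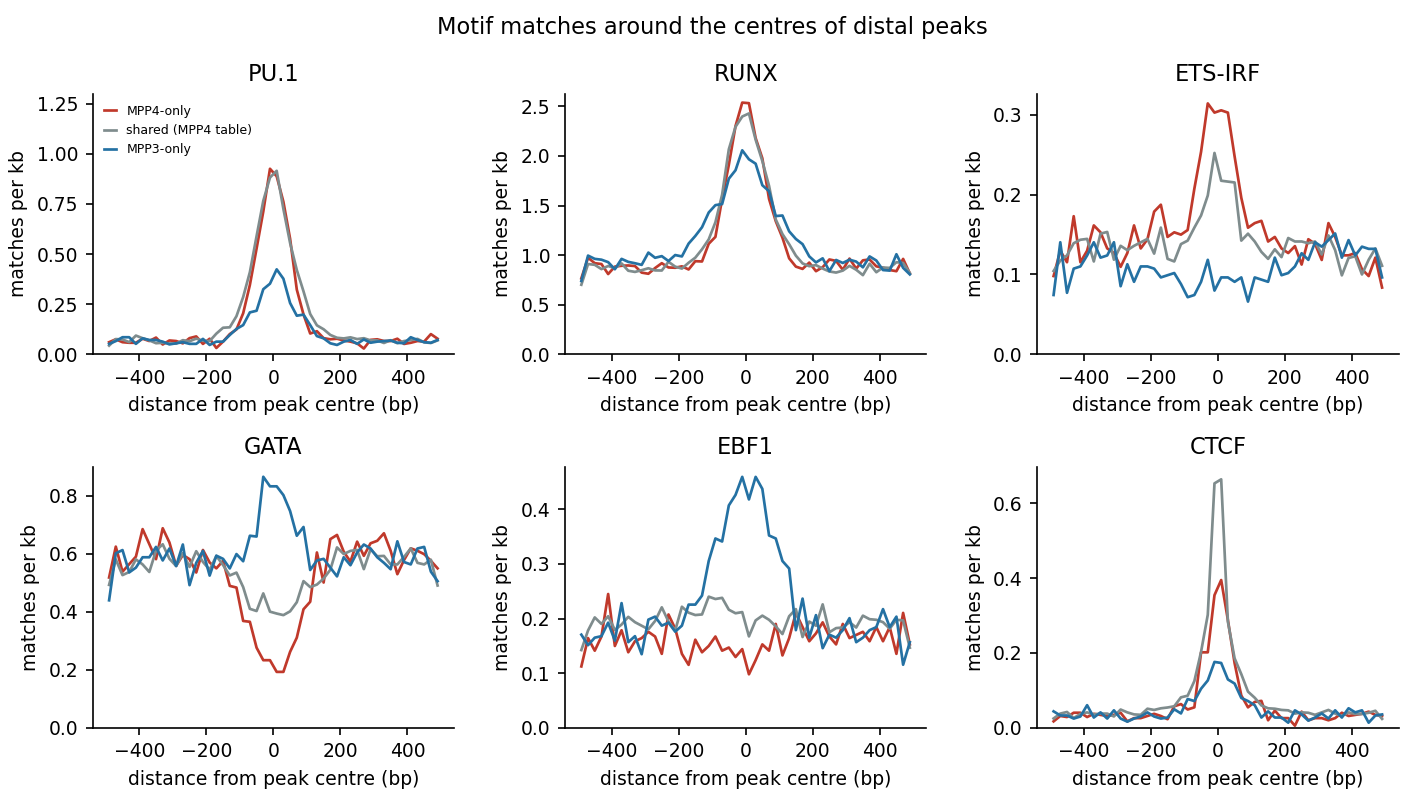
Matches per kb in bins of 20 bp up to 500 bp from the peak centre for 6 motifs in MPP4-only, shared and MPP3-only distal peaks. PU.1, RUNX and CTCF peak at the centre in all sets, ETS-IRF in MPP4-only and shared peaks, and GATA and EBF1 in MPP3-only peaks, while GATA dips at the centre of MPP4-only peaks.

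All words of 6 letters were counted as well, without a choice of motifs. Of 2080 words, each joined with its reverse complement, the 3 with the largest excess in MPP4-only over MPP3-only peaks were ACTTCC (33.8% against 21.7%), GAGGAA (37.2% against 25.2%) and AGGAAG (47.9% against 35.97%). They are parts of the PU.1 motif or its reverse. AACCAC, which holds the reverse of most of the RUNX motif, was at rank 7 with 22.1% against 14.5%. Many of the other words near the top were rich in A. Among them were AGAAAA at rank 6 (20.8% against 13.2%), AAAAAG at rank 11 (15.6% against 8.54%) and TAAAAA at rank 16 (13.7% against 7.33%). With A at the free bases, AAAAAG fits part of the ISRE motif and TAAAAA part of the reverse of the MEF2 motif. The lowest rank was that of AGATAA, searched above for GATA factors, at 5.27% against 12.9%. Next to it stood CTTATC, the same core read in reverse, at 3.98% against 10.6%. Words of CA repeats came next, with ACACAC at 21.9% against 28.1% and CACACA at 27.1% against 33.1%. How much of the word ranks goes with base composition and simple repeats was not tested.

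MPP4-only peaks were spread over many genes. A transcript qualified for a peak if the peak's centre lay inside it, within 20 kb before its start or 10 kb after its end. Of those that qualified, the transcript whose start, end or midpoint lay nearest gave the gene, with ties to protein-coding genes. By this rule 9083 genes had an MPP4-only distal peak, 6203 of them exactly 1, and 2895 peaks had no gene. Over all distal MPP4 peaks with a gene, 26.8% were MPP4-only. In each of 9 gene lists the share's interval included this value. Stem and progenitor genes had 32.5% (25.6 to 40.2), B lineage genes 32.9% (23.2 to 44.3), T lineage genes 29.1% (20.3 to 39.9) and lymphoid priming genes 28.6% (23.2 to 34.7). Myeloid genes had 25.4% (16.3 to 37.3), dendritic genes 23.5% (14.0 to 36.8), natural killer and innate lymphoid genes 23.8% (16.0 to 33.9), erythroid and megakaryocyte genes 26.4% (16.4 to 39.6) and cell cycle genes 25% (15.8 to 37.2). With peaks given to the gene of the nearest transcript start instead, stem and progenitor genes had 36.2% (28.4 to 44.9), above the 27.4% of all peaks with a gene.

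**Figure D4:**
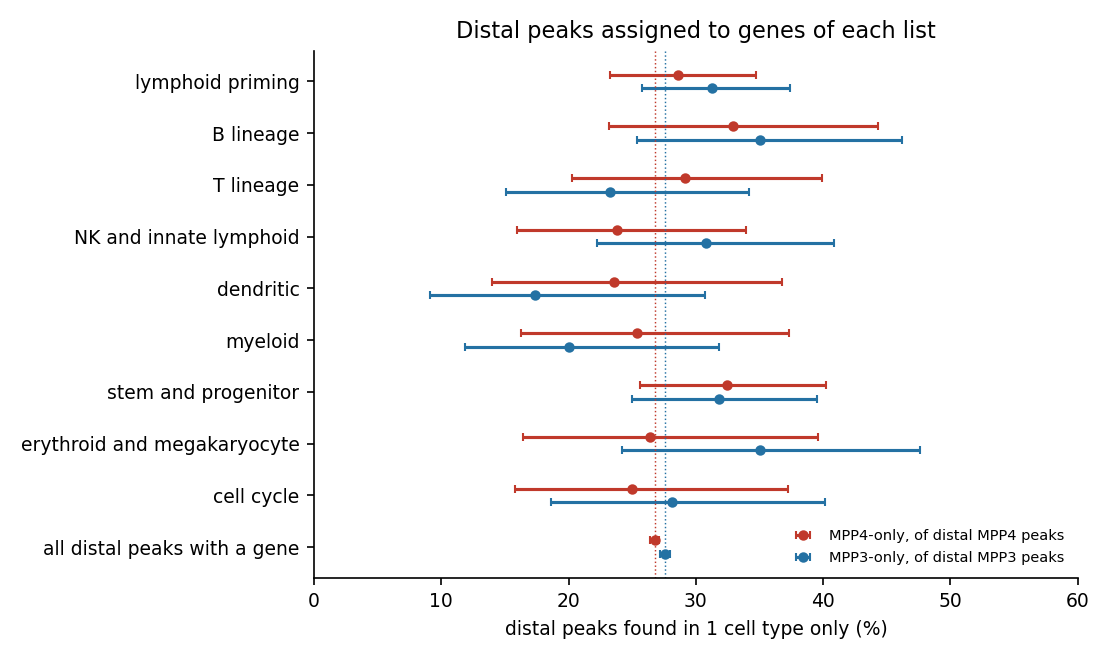
Share of distal MPP4 peaks that were MPP4-only and of distal MPP3 peaks that were MPP3-only, for peaks assigned to genes of 9 lists, with 95% Wilson intervals; dotted lines mark the shares over all distal peaks with a gene (26.8% and 27.6%). Every interval includes the dotted line of its own cell type.

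Over all genes with a distal MPP4 peak, 9083 of 19217 had an MPP4-only one. The gene counts below are not set against that share as a result, since the listed genes had more distal peaks each: 234 over 27 lymphoid priming genes, against 54052 over the 19217. Among lymphoid priming genes, 21 of the 27 with a distal MPP4 peak had at least 1 MPP4-only, and 18 had an MPP3-only peak. Foxp1, a forkhead factor of early B cell development, had 11 and also 21 MPP3-only peaks. Runx1 had 8 (7 MPP3-only), Tcf4, which encodes an E protein of plasmacytoid dendritic cells, 8 (4 MPP3-only) and Bach2, a repressor in lymphoid cells, 8 (5 MPP3-only). Notch1, the receptor that starts T cell fate, had 6 against 3. Mef2c, a factor that favours lymphoid over myeloid fate, had 3 MPP4-only and no MPP3-only peaks. A pair of these lie next to each other in an intron (chr13:83565791-83566119 and chr13:83566236-83566552), with mean log2 CPM of 2.44 and 2.63. Ccr9, Cd27, Cd52, Ikzf2, Il7r, Ly6d, Myb and Rag1 had none.

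Flt3, the receptor that defines the MPP4 gate, had 3 MPP4-only peaks of low level, at 1.55, 1.32 and 0.85. Its strongest distal peaks, at 6.17 and 5.81, were shared with MPP3 cells.

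Of 16 B lineage genes with a distal MPP4 peak, 12 had an MPP4-only one, and 9 genes of the list had an MPP3-only peak. Ebf1 itself, the gene deleted in the knockout mice, had 7 intronic ones, 9 shared and 9 MPP3-only. The highest of the 7 (chr11:44633036-44633317) had a mean log2 CPM of 2.00 and a PU.1 match, and the other 6 lay between 0.43 and 1.17. Pax5, the factor that maintains B cell identity, had 3 and 3 MPP3-only, of which the highest (chr4:44624767-44625157, 2.42) lay 38980 bp from the nearest MPP3 peak. Ms4a1, which encodes CD20, had 3 distal peaks, all MPP4-only, at 2.32, 1.74 and 0.57. Blk and Ciita had 2 each and Pou2f2 had 1. Among those with none were Cd79a, Cd79b, Vpreb1, Vpreb3, Igll1, Cd22, Cr2 and Bank1, and none could be found for X-linked Btk, since the tables held autosomes only.

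Of 19 T lineage genes with a distal MPP4 peak, 13 had an MPP4-only one, and 10 genes of the list had an MPP3-only peak. Cd3e, a chain of the T cell receptor complex, had 3 distal peaks, all MPP4-only, at 2.75, 1.40 and 1.14. Tcf7, which encodes TCF1, had 2 and no MPP3-only peak, as did Cd2 and Il2ra. The higher of the peaks near Cd2 (chr3:101270941-101271166, intergenic, 2.47) held PU.1 and ETS-IRF matches. Cd28 had 2 and 2 MPP3-only. Among those with none were Cd3d, Cd3g, Cd8a, Lat and Thy1, with no distal MPP4 peak at all, and Runx3, with 9 shared peaks.

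Of 20 stem and progenitor genes with a distal MPP4 peak, 14 had an MPP4-only one, and as many of the list, 14, had an MPP3-only peak. Prdm16, a regulator of stem cell maintenance, had 12 MPP4-only and 4 MPP3-only peaks, with levels from 0.36 to 3.41. Erg had 8 (9 MPP3-only), Kit, the stem cell factor receptor of the LSK gate, 5 (1 MPP3-only), and Hlf, a stem cell factor, 4 and no MPP3-only peak. Mecom had 4 against 9 and Mllt3 3 against 6. Meis1, with 9 shared peaks, Lmo2, with 7, and Gata2, with 1, had none. In the myeloid list, 7 genes had more MPP4-only and 4 more MPP3-only peaks. Irf8 had 3 MPP4-only and 4 MPP3-only peaks, and Cebpd 2 and no MPP3-only peak. Spi1, Csf2rb, Ly86 and Csf1r had 2 MPP4-only peaks and 1 MPP3-only peak each. Of the innate lymphoid genes, Zbtb16 had 8 (7 MPP3-only) and Rora 6 (13 MPP3-only), and of the dendritic genes Runx2 had 6 (5 MPP3-only), Zbtb46 4 (1 MPP3-only) and Siglech 2 (none MPP3-only). Vwf had 4 and Zfpm1 3 in the erythroid and megakaryocyte list, with 3 MPP3-only each, and Cdk6 had 5 (8 MPP3-only) and Ccnd3 3 (2 MPP3-only) in the cell cycle list.

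**Figure D5:**
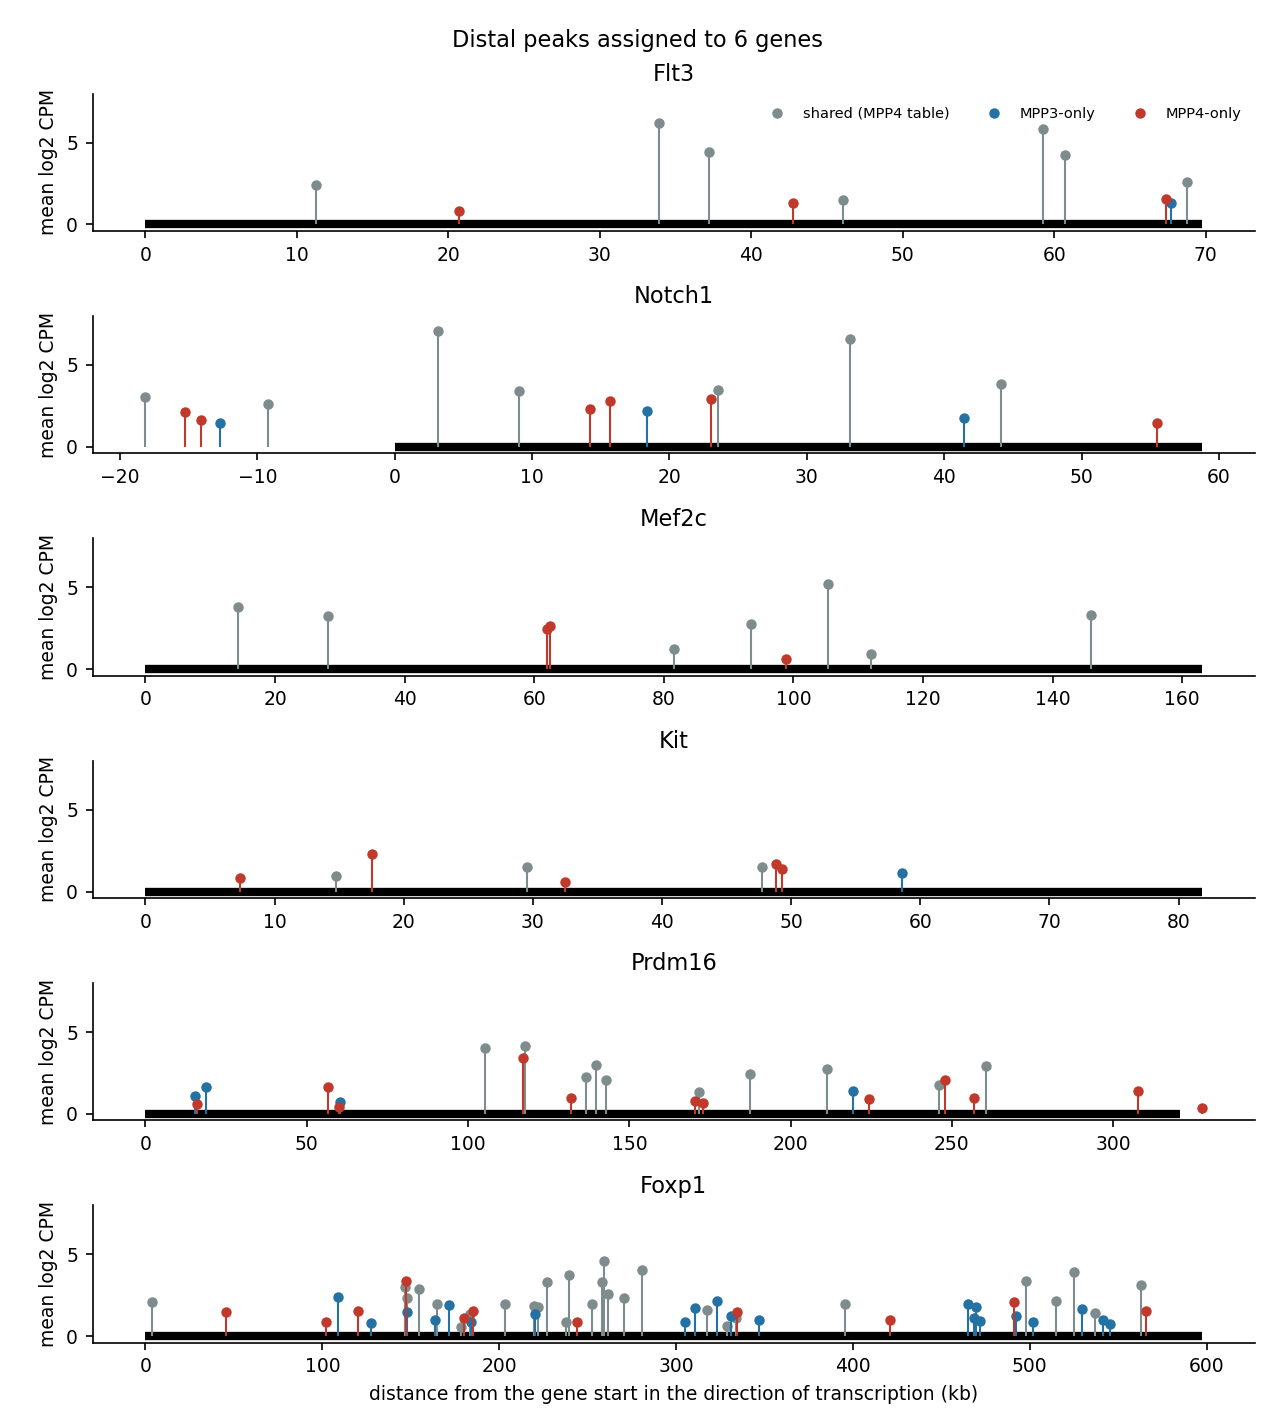
Distal peaks assigned to 6 genes, chosen after their values were seen, by distance from the gene start in the direction of transcription (kb) and mean log2 CPM, with the gene as a black bar; MPP3-only peaks carry the level of the MPP3 table. At Flt3, Notch1 and Mef2c the highest peaks are shared, at 6.17, 7.08 and 5.22, and MPP4-only peaks are lower, whereas at Kit the highest is MPP4-only, at 2.304.

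The genes with the most MPP4-only distal peaks were long ones. Gm20388, a gene model of 4435 kb on chromosome 8, had 30. Msi2, an RNA-binding regulator of stem cells, Gabbr2, Foxn3 and Pde4d had 13 each, and Atp2b2, Wwox, Prdm16, Gse1, Asic2 and Babam2 had 12. Msi2 also had 10 MPP3-only peaks and Foxn3 13, whereas Asic2 had none. In all, 22 genes had 10 or more. Protein-coding genes with 4 or more MPP4-only peaks and no MPP3-only peak numbered 66, and those with the reverse pattern 80.

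The strongest MPP4-only peak lay near Tac4 (chr11:95260022-95260307, intergenic, 4.84) and held PU.1, RUNX and E-box matches. It was 100 bp from an MPP3 peak. The others of the top 10 were in introns of Dym (4.56), Atp6v0a4 (4.53), Cracr2a (4.51), Gm11168 (4.48) and Iscu (4.44), and in intergenic DNA nearest to Lrpap1 (4.48), Gm10161 (4.46), AC102255.1 (4.42) and Gm18604 (4.41). Gm11168 had 94.2% soft-masked bases. Of these 10, those of Gm11168 and Gm18604 lay 531 and 2086 bp from an MPP3 peak, and the other 8 lay between 59 and 436 bp away. These 10 strongest regions thus mostly lay close to an MPP3 peak. Whether those MPP3 peaks were shared with MPP4 cells was not tested.

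Most MPP4-only peaks stood alone. With at most 10000 bp between the centres of neighbours, a distance chosen after the data were seen, 12558 were single and 11 runs held 5 or more, 57 peaks together. The longest runs had 6, near Gm11528 (chr11:95610149-95628644) and at Wnt5b (chr6:119502126-119528025). Wnt5b, which encodes a WNT ligand, had 8 MPP4-only and no MPP3-only distal peaks, with levels up to 3.28.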

How the data were processed

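Peak positions and levels were taken from the 2 deposited tables, 1 for MPP3 and 1 for MPP4 cells. The authors trimmed reads with cutadapt 2.10, mapped them to mm10, removed duplicates, and removed blacklisted regions and longer fragments with deepTools 3.3.2, called peaks with MACS2 2.2.7.1 on merged replicates, merged peaks per cell type with bedtools and fitted edgeR 3.32.0 in R 4.0.3. Versions are from the submitters' processing notes. The deposited level is the authors' mean log2 CPM of each peak over 4 libraries. The tables also hold the authors' log2 fold changes, F statistics, p-values and FDR for knockout against control. These are the authors' own comparison and were not used. No depth per library was analysed here.

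Overlaps, distances to GENCODE vM21 transcript starts, GC content, soft-masking and motif matches (GRCm38.p6 reference) were computed here (pandas 2.3.3, scipy 1.17.1, numpy 2.4.6, Python 3.11.15). The tables held autosomal peaks only. No sequence of chromosome 18 is printed, and a few items are not reported here. Overlap, motif, interval and reweighting functions were tested on simulated data. Shares carry 95% Wilson intervals and differences Newcombe intervals, for counting error only: peaks are not replicates. No filter on low values was applied. The named genes were, per list, the up to 6 with the most MPP4-only peaks and those with none, then the 10 genes and 10 peaks with the highest counts and levels. The regions, lists, motifs and tests were chosen with earlier results of these data known. Alternatives covered overlap, distance, level, window, repeats, GC content and gene assignment.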

Additional observations from a re-analysis of the deposited data

How the results depend on the processing

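The number of MPP4-only distal peaks stayed within 1.5 times of 17354 under other overlap and distance rules (12791 to 18539) and fell to 10407 and 2345 at a mean log2 CPM of at least 1 and 2. Their share of distal MPP4 peaks was then 19.5% and 7.27%, and 24.8% with members over 500 bp from every MPP3 peak and 29.1% when MPP3 peaks could cover under 50% of the length. The median level of MPP4-only minus shared peaks was -1.32, with -1.36 over 500 bp from MPP3 peaks and -0.78 per kb of peak. Against shared peaks, 7 of 21 motifs were higher in the 200 bp window and 0 over whole peaks, where ISRE (-0.41 points) and ETS-IRF (-0.17 points) reversed; shared peaks are longer. Of single-motif differences, 102 moved beyond their interval, 2 reversed and 190 did neither. A change of sign counted as reversed only where the main interval left out 0. Other changes of sign, such as RUNX against shared peaks from -0.17 to 2.03 after reweighting to the level, are not among the 2. Reweighting by GC content left PU.1 5.09 points, ETS-IRF 2.86 points and GATA -9.003 points from MPP3-only peaks. Reweighting by level and GC content, added after seeing the data, gave 5.17, 2.88 and -8.99. Of gene lists, dendritic genes fell to 13.8% with the gene of the nearest transcript start (also within 100 kb) and stem and progenitor genes to 23.3% at a mean log2 CPM of at least 1. With the nearest start, stem and progenitor genes had 36.2% (28.4 to 44.9), above the 27.4% of all distal peaks, and 36.6% within 100 kb. All distal peaks with a gene then had 27.4%, 27.3% within 100 kb and 19.3% at a level of at least 1. The other 45 recomputed summary values moved by less than their interval or, for counts, 1.5 times. No paired analysis was possible because the columns used hold no value per library, which also bars leaving out replicates. What depth limits was not tested.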
